A study of Mus musculus with 6 samples.

Results

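The 30 oligodendrocyte lineage and myelin genes described here were chosen by gene symbol, as known genes of oligodendrocytes and their precursors, out of 32531 gene entries, and all 30 were found. The choice, like that of the other gene lists below, was made with earlier results of these data known. RNA sequencing measured the 30 genes in midbrain from adult mice of the line Lhx5-EGFP/Rpl10a (DT154), also labelled Lhx5-TRAP DT154. All mice were untreated controls, and all carried the transgene, an EGFP-tagged ribosomal protein Rpl10a in a line named for Lhx5, a LIM homeodomain transcription factor gene. In translating ribosome affinity purification (TRAP), antibodies to EGFP pull down polysomes of the cells that make the tag. The groups were 3 libraries of immunopurified polysomal RNA (IP) and 3 libraries titled Input. These 3 also carry the label Unbound, and whether they hold starting homogenate or the remainder of the pull-down is not settled by the labels. The study describes the profiled cells as neurons. The labels do not list which midbrain neurons carry the tag, give no age beyond adult, and do not say whether a replicate was 1 mouse or a pool, so p-values measure only the spread between these libraries, which may be technical.

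Myelin is the membrane sheath that oligodendrocytes wrap around axons in the brain and spinal cord. Oligodendrocytes arise from precursor cells that carry the PDGF receptor encoded by Pdgfra and the proteoglycan encoded by Cspg4, pass through a newly formed stage, and then switch on the transcription factor Myrf and the genes of the sheath. In the adult midbrain they lie among the fibre tracts and neurons, so their RNA is part of any piece of midbrain tissue.

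Gene totals were 38058239 to 45841499 counts per library, at which 3 counts equal 0.0654 to 0.0788 CPM (counts scaled to a common library size, with totals corrected by TMM factors). Lhx5 stood at 46.8 to 56.0 CPM in IP and 2.20 to 3.92 in Input. Some libraries stood apart in genes of other brain regions. IP replicate 2 had 77.9 CPM of the Purkinje cell gene Pcp2 against 0.117 and 0.167 in the other IP libraries. Input replicate 3 had 73.3 CPM of the striatal receptor gene Drd1 against 11.2 and 3.37, and 4.99 CPM of Slc6a3, the dopamine transporter gene that defines midbrain dopamine neurons, against 62.4 and 52.3. Other region markers, En1 and Tph2, were also lowest among Input libraries in Input replicate 3, at 0.765 and 0.296 CPM. In IP replicate 3 they stood at 7.77 and 2.38 CPM and were not the lowest of IP. Slc6a3 and Drd1 were the lowest of IP there. Slc6a3 had 2.87 CPM in IP replicate 3 against 6.67 and 4.96, and Drd1 had 0.653 against 4.13 and 3.76. Whether the 2 libraries of pair 3 came from like tissue was not tested. Results are therefore also given without IP replicate 2 and Input replicate 3. Reads tallied as ambiguous, and so left out of gene counts, were 1.63% ± 0.0460 of the tally in IP libraries against 9.35% ± 1.48 in Input libraries (mean ± SD, n = 3 each). Whether this moved the values of genes that overlap others was not tested.

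All 30 oligodendrocyte genes fell in IP. Each passed an adjusted p of 0.05 in the edgeR quasi-likelihood test with adjustment over all 17197 tested genes. Of all tested genes 53.9% were called, 27.9% as lower and 26% as higher in IP, and 0 of the 30 were called higher. Their adjusted p ran from 3.13e-06 for Ermn to 0.00111 for Cspg4. A fall shown to exceed 2-fold was found for 29 of the 30, against 12.9% of all tested genes, and the exception was Qdpr. A rise past 2-fold was found for 0 of the 30 and for 2.25% of all tested genes. In every one of the 30 genes the 3 IP libraries lay below the 3 Input libraries, a separation seen in 32.8% of tested genes, and the reverse separation, found in 0 of the 30, was seen in 30.7%. The median log2 fold change of the 30 genes was -3.27, that of all tested genes -0.01. Without IP replicate 2 and Input replicate 3 the 30 genes were still all called lower and 29 past 2-fold, with a median of -3.14. The comparison sets pulled-down RNA against RNA titled Input, so a lower level in IP measures neither the number of oligodendrocytes nor their RNA content. How much of the IP level came from cells without the tag was not tested.

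Added together, the 30 genes took 0.0772% ± 0.00625 of all gene counts in the IP libraries against 0.630% ± 0.0414 in the Input libraries (mean ± SD, n = 3 each). By library the share was 0.0788%, 0.0703% and 0.0825% in IP replicates 1, 2 and 3, and 0.661%, 0.583% and 0.646% in Input replicates 1, 2 and 3. The groups did not overlap, and replicate 2 had the lowest share in both. Of the 30 genes, 20 had their lowest IP level in IP replicate 2 and 0 their highest, and 22 had their lowest Input level in Input replicate 2. The plot of levels by library shows the 2 groups side by side for each gene.

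**Figure D1:**
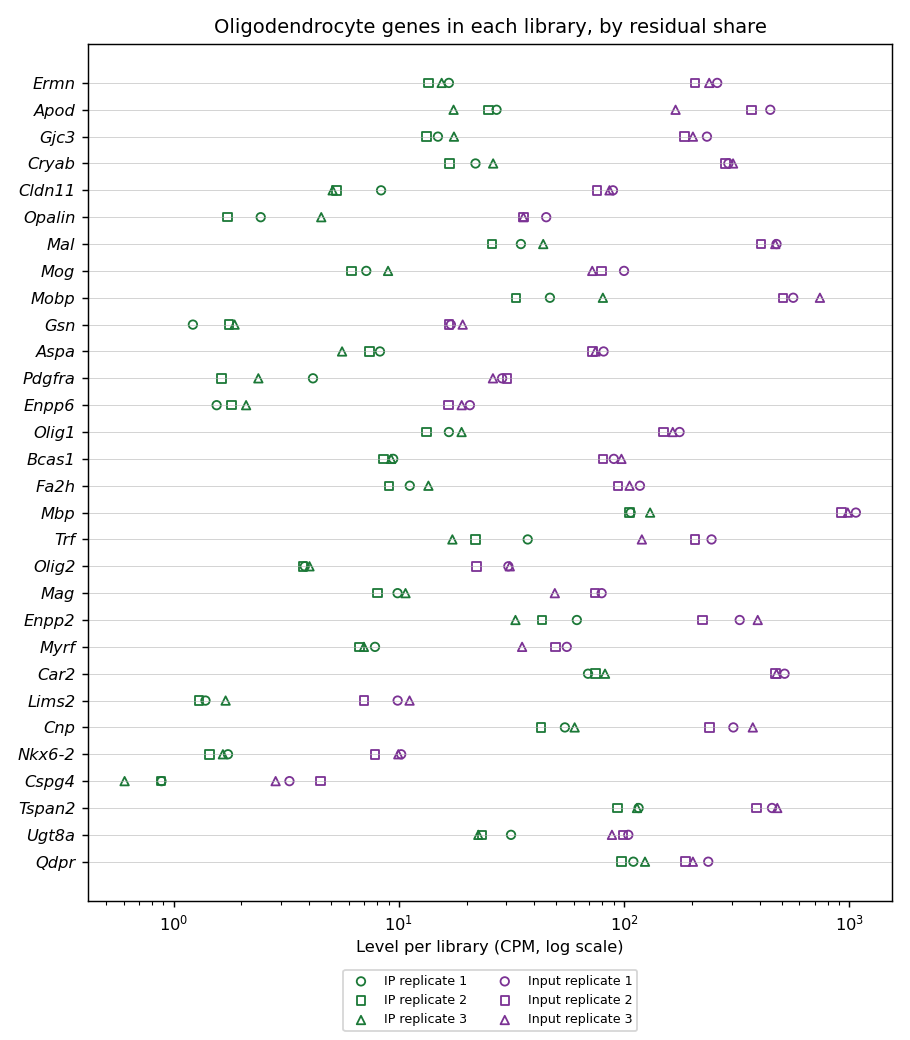
Level of each of the 30 oligodendrocyte genes in each library, in CPM on a log axis, with genes in rows from the lowest residual share (Ermn) to the highest (Qdpr), green for IP, purple for Input and symbols for replicates 1 to 3. In each row the 3 IP points lie to the left of the 3 Input points, with the narrowest gap for Qdpr.

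The residual share of a gene, its mean CPM in IP as a percent of its mean CPM in Input, had a median of 10.4% over the 30 genes and ran from 6.49% to 52.9%. The ranking by it is a description with no test. Within the same-numbered pairs of an IP and an Input library the median was 10.3%, 10.6% and 12.5%. The order of genes was alike between pairs, with Spearman correlations across the 30 genes of 0.80 between pairs 1 and 2, 0.63 between pairs 1 and 3 and 0.71 between pairs 2 and 3. These pairs share no library, but the genes within a library share its depth and dissection and are not independent replicates.

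**Figure D2:**
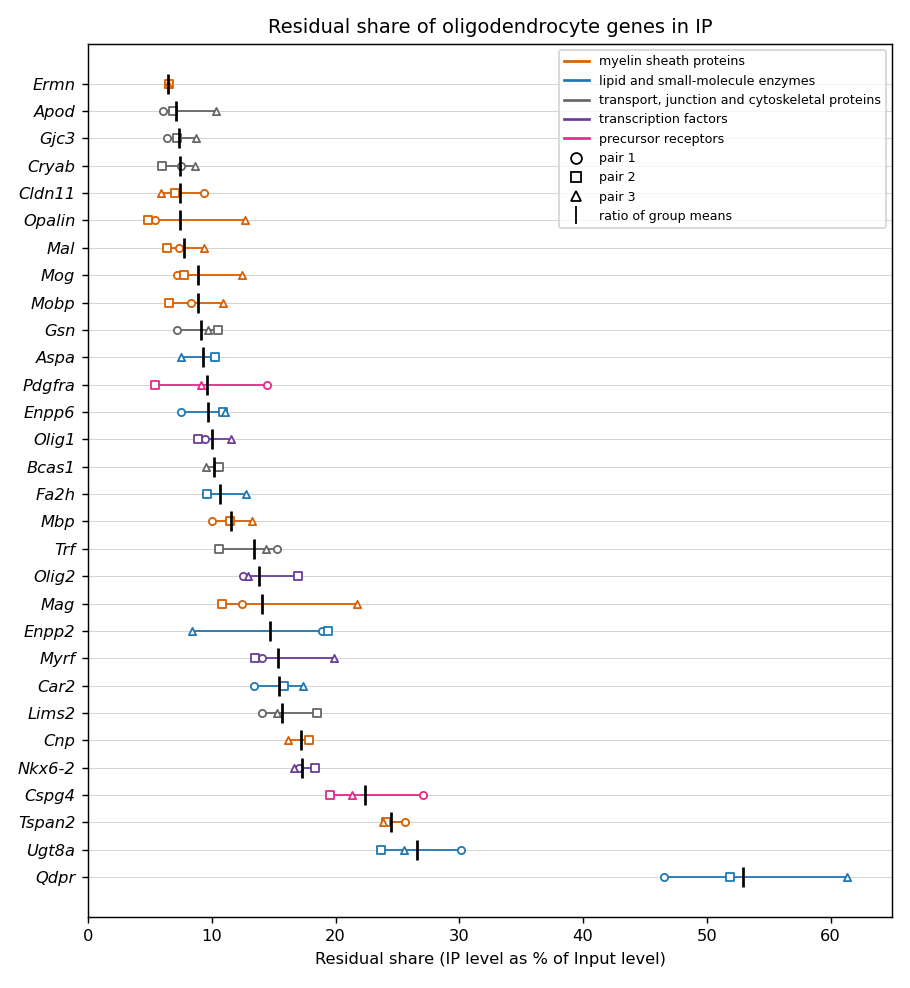
Residual share of each of the 30 genes in IP, in percent of the Input level, with open symbols for the 3 same-numbered pairs, a black bar for the ratio of the group means, and colour for the role of the gene. The bars of 26 genes lie between 6.49% and 17.3%, and those of Cspg4, Tspan2, Ugt8a and Qdpr lie above.

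All 10 genes of myelin sheath proteins fell, and they held the largest part of the counts of the 30 genes in both groups. Mbp encodes myelin basic protein, which joins the inner faces of the membrane layers, and was the most counted of the 30 genes in Input. Mbp stood at 1068, 920.5 and 983 CPM in Input replicates 1, 2 and 3 and at 107, 105 and 130.4 CPM in IP replicates 1, 2 and 3. All 3 IP levels lay far below the lowest Input library. The log2 fold change of Mbp was -3.12 (SE 0.13; edgeR, adjusted p 4.14e-06), and its residual share of 11.5% was above that of most other sheath genes.

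Mobp, which encodes a small basic protein of the compact layers, had 563, 508 and 739.6 CPM in Input and 46.8, 33.1 and 80.5 CPM in IP. Both groups were highest in replicate 3 and did not overlap. Its log2 fold change was -3.50 (SE 0.32), and its SE was larger than that of Mbp. Mal, a proteolipid that sorts myelin membrane, had 475, 405 and 469 CPM in Input and 34.8, 25.9 and 43.7 CPM in IP, again with no overlap. Mog, a minor glycoprotein on the outermost surface of the sheath, had 99.9, 79.5 and 72.2 CPM in Input and 7.17, 6.15 and 8.96 CPM in IP. The residual shares of Mobp, Mal and Mog were 8.86%, 7.75% and 8.86%.

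Ermn encodes ermin, a cytoskeletal protein of late oligodendrocytes, and had the lowest residual share of all 30 genes, 6.49%. It had 259, 207 and 238.5 CPM in Input and 16.7, 13.6 and 15.5 CPM in IP, so that the mean was 15.4-fold lower in IP. The share was nearly the same in each pair, at 6.44%, 6.56% and 6.49%. Its log2 fold change was -3.94 (SE 0.14). Cldn11, the claudin of the tight junctions between myelin layers, and Opalin, a transmembrane sialoglycoprotein of myelinating cells, followed with residual shares of 7.46% and 7.47%. Opalin varied most between pairs among these, from 4.86% in pair 2 to 12.7% in pair 3, and in IP replicate 2 it had 71 counts.

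Mag, Cnp and Tspan2 had the highest residual shares among the sheath genes. Mag encodes a glycoprotein of the membrane next to the axon that binds receptors on neurons. It had 79.5, 74.4 and 49.2 CPM in Input and 9.87, 8.06 and 10.7 CPM in IP, so its residual share of 14.1% covered 10.8% to 21.7% by pair, the highest value falling in pair 3, where the Input level was lowest. Cnp, the phosphodiesterase that keeps cytoplasmic channels in myelin open, had 305, 239 and 372 CPM in Input and 54.6, 42.8 and 60.3 CPM in IP, a residual share of 17.2% ± 0.978 (SD over 3 pairs). Tspan2, a tetraspanin of the sheath, had 453, 387 and 478 CPM in Input and 116, 93.3 and 114 CPM in IP. Its log2 fold change was -2.03 (SE 0.14), the smallest fall among the sheath genes, and its residual share of 24.5% stayed between 23.8% and 25.6% in the 3 pairs.

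The sequence before the start site is shown for 3 of the 30 genes as a description, since these libraries do not measure promoters: Ermn with the lowest residual share, Qdpr, an enzyme gene, with the highest, and Mobp, chosen after the matches were seen because it held the most matches to a SOX-type motif among the genes with a window. The sequences are from RefSeq (GRCm38.p6, the assembly also called mm10), 5′ to 3′ on the gene's strand, ending at the last base before the gene in GENCODE M21. Capitals mark ACAAAG on either strand (CTTTGT on the opposite one), a core recognised by SOX factors, of which Sox10 is a known regulator of myelin genes.
Ermn (chr2:58052865-58053114, minus strand): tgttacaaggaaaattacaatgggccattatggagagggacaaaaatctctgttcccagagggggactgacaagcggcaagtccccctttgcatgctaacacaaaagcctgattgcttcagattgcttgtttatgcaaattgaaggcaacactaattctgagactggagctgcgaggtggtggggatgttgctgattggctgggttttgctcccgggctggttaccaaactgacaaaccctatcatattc
Mobp (chr9:120149492-120149706, plus strand): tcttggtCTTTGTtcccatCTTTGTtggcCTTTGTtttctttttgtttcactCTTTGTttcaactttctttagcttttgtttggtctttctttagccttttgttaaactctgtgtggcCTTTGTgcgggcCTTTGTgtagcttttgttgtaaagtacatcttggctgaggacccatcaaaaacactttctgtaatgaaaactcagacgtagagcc
Qdpr (chr5:45450237-45450479, minus strand): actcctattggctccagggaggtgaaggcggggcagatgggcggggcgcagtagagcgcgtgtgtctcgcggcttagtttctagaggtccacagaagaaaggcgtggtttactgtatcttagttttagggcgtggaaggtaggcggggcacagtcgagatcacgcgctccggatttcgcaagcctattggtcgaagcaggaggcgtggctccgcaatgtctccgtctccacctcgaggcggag
The Mobp stretch held 6 matches, while the stretches of Ermn and Qdpr held 0. Promoter windows were at hand for 20 of the 30 genes, 25 windows in all. ACAAAG occurred in the 250 bases before the start in 7 of these 25 windows (28%) and in 16.5% of 32851 windows of the same length over all genes. The E-box CAGCTG, its own reverse complement and a type of site bound by bHLH factors, occurred in 3 of 25 (12%) and in 13% of all windows. CTGGCAC, a core reported for Myrf and searched on both strands, occurred in 3 of 25 (12%), in windows of Mag and Cnp, and in 4.19% of all. CAGCTG ends with the letters that open CTGGCAC, so these 2 motifs can overlap. A match is a string of letters and not a measured binding site.

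All 7 genes of enzymes of myelin lipids and of small molecules fell, with residual shares of 9.32% to 26.6% for 6 of them and 52.9% for Qdpr. Aspa, the aspartoacylase that frees acetate from N-acetylaspartate for lipid synthesis, had a residual share of 9.32%, and Fa2h, which makes the 2-hydroxylated fatty acids of myelin lipids, had 10.6%. Fa2h had 118, 94.1 and 106 CPM in Input and 11.2, 9.06 and 13.5 CPM in IP. Ugt8a, which makes galactosylceramide from ceramide, the step next to Fa2h in the same lipid pathway, had 104, 98.6 and 88.3 CPM in Input and 31.5, 23.4 and 22.5 CPM in IP. Per kilobase of exon, Fa2h lay above Ugt8a in Input, at 35.2 ± 3.90 against 21.4 ± 1.79 CPM per kb, and below it in IP, at 3.74 ± 0.743 against 5.69 ± 1.09 CPM per kb (SD, n = 3). The log2 fold changes were -3.23 (SE 0.18) for Fa2h and -1.91 (SE 0.16) for Ugt8a, and their difference was not tested.

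Qdpr encodes dihydropteridine reductase, which regenerates the tetrahydrobiopterin cofactor of the amino acid hydroxylases that also serve monoamine synthesis. It had 236, 188 and 202 CPM in Input and 109.9, 97.4 and 124 CPM in IP. The groups did not overlap, and the fall was the smallest among the 30 genes. The log2 fold change of Qdpr was -0.92 (SE 0.13; edgeR, adjusted p 0.000725), and it was not shown to exceed 2-fold. Its residual share was the highest in each pair, at 46.5%, 51.9% and 61.3%. In GENCODE M21 an antisense gene, whose symbol is not among the counted entries, covers 18.6% of the exon bases of Qdpr. Whether reads were assigned by strand is not given in the sources used here.

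Enpp2 encodes autotaxin, a secreted enzyme that makes lysophosphatidic acid. It had 326, 223 and 392 CPM in Input and 61.7, 43.3 and 32.9 CPM in IP, with residual shares of 18.9%, 19.4% and 8.41% in pairs 1, 2 and 3. Enpp2 is also made by the choroid plexus, and Ttr, the transthyretin gene of that tissue, had 338, 7.24 and 1266 CPM in the Input libraries, the same order as Enpp2. In the IP libraries Ttr had 21.3, 0.391 and 2.75 CPM, which is not the order of Enpp2. The part of choroid plexus RNA in the Enpp2 values was not tested. Car2, a carbonic anhydrase, had 516, 470.4 and 475 CPM in Input and 69.1, 74.5 and 82.3 CPM in IP, a residual share of 15.5%. Enpp6, a choline phosphodiesterase of newly formed oligodendrocytes, had 20.7, 16.6 and 19.0 CPM in Input and 1.55, 1.81 and 2.10 CPM in IP, a residual share of 9.71%.

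All 7 transport, junction and cytoskeletal genes fell. Their summed level in IP was 8.63% of that in Input, against 12.3% for the sheath genes, while their median residual share was 9.15%, against 8.86% for the sheath genes. Gjc3, a connexin of oligodendrocyte gap junctions, had 233, 185 and 202 CPM in Input and 14.9, 13.3 and 17.6 CPM in IP. Cryab, a small heat shock protein, had 290.2, 282 and 304 CPM in Input and 21.9, 16.8 and 26.2 CPM in IP. Apod, a secreted lipid carrier, ranked next to Ermn with a residual share of 7.10%. None of the 3 overlapped between groups.

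Several genes were lower in Input replicate 3 than in the other Input libraries, although the 30 genes as a whole were not. Apod had 445, 367 and 169 CPM in Input and 27.1, 25.1 and 17.5 CPM in IP. Trf, the iron carrier transferrin, had 244, 206 and 119.9 CPM in Input and 37.3, 21.9 and 17.3 CPM in IP. Replicate 3 was the lowest of both groups for Apod and for Trf. Mag and Myrf were also lowest in Input replicate 3, with 35.2 CPM of Myrf there against 55.7 and 49.5, while Mobp, Cnp and Enpp2 were highest there. Input replicate 3 was also the library with high Drd1 and low Slc6a3, and the part of tissue from other regions in these values was not tested.

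Gsn, the actin-severing protein gelsolin, Lims2, an adaptor at integrin contacts, and Bcas1, a gene of early myelinating cells, completed the group. Their residual shares were 9.15%, 15.6% and 10.2%. Gsn had 51 to 80 counts per IP library and Lims2 53 to 73, so their IP levels rest on few reads. Lims2 overlaps the precursor gene Gpr17 on the other strand over 6.14% of its exon bases. For Trf, 63.5% of the exon bases lie in a second GENCODE M21 gene, whose symbol is not among the counted entries. The part of reads left out as ambiguous in the Lims2 and Trf values was not tested.

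The 4 transcription factors of the lineage fell as well. Olig1 and Olig2, neighbouring bHLH genes on chromosome 16, specify and maintain the lineage. Olig1 (91269772 to 91271933, GRCm38) had 176, 149 and 164 CPM in Input and 16.7, 13.3 and 19.0 CPM in IP. Olig2 (91225457 to 91228677) had 30.6, 22.2 and 31.1 CPM in Input and 3.82, 3.76 and 4.01 CPM in IP. Neither gene overlapped between groups, and their residual shares were 9.99% and 13.8%. Per kb of exon Olig1 was the higher in both groups, at 75.5 ± 6.24 against 11.1 ± 1.98 CPM per kb in Input and 7.54 ± 1.33 against 1.53 ± 0.0517 CPM per kb in IP (SD, n = 3). Myrf, which drives the sheath genes, had a log2 fold change of -2.71 (SE 0.19), and Nkx6-2, a homeodomain factor of myelinating cells, had one of -2.53 (SE 0.22). Nkx6-2 had 10.2, 7.84 and 9.95 CPM in Input and 1.74, 1.44 and 1.66 CPM in IP.

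The 2 precursor receptor genes were the least abundant per length. Pdgfra, the receptor through which platelet-derived growth factor drives precursor division, had 28.7, 30.1 and 26.2 CPM in Input and 4.16, 1.64 and 2.38 CPM in IP. Its residual share varied from 5.43% in pair 2 to 14.5% in pair 1, more than the Input levels did. Cspg4, the NG2 proteoglycan, had 3.27, 4.49 and 2.84 CPM in Input and 0.884, 0.879 and 0.606 CPM in IP, which was 26 to 37 counts per library. Cspg4 also marks pericytes of small vessels. Its log2 fold change was -2.16 (SE 0.35; edgeR, adjusted p 0.00111) and that of Pdgfra was -3.38 (SE 0.31).

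Levels were compared between genes per kilobase of annotated exon (GENCODE M21), in CPM per kb. In Input the highest were Car2 at 201 ± 10.3, Cryab at 198 ± 7.66 and Mal at 162 ± 13.97 CPM per kb (SD, n = 3), of which the levels of Car2 and Cryab lay within each other's SD. Apod at 127 ± 55.2, Mbp at 117 ± 8.75 and Qdpr at 117 ± 13.97 CPM per kb followed and did not differ beyond their spread, and Apod did not differ beyond its spread from Mal. In IP the order opened with Qdpr at 61.7 ± 7.39, Car2 at 31.1 ± 2.73 and Tspan2 at 22.7 ± 2.64 CPM per kb, each apart from the next by more than their SDs. Cspg4 was last in both groups, at 0.296 ± 0.0720 in Input and 0.0662 ± 0.0133 CPM per kb in IP. Across the 30 genes the levels per kb in Input and IP had a Spearman correlation of 0.96. The residual share had one of -0.19 with the Input level per kb and 0.19 with exon length, each over 30 genes of the same libraries.

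**Figure D3:**
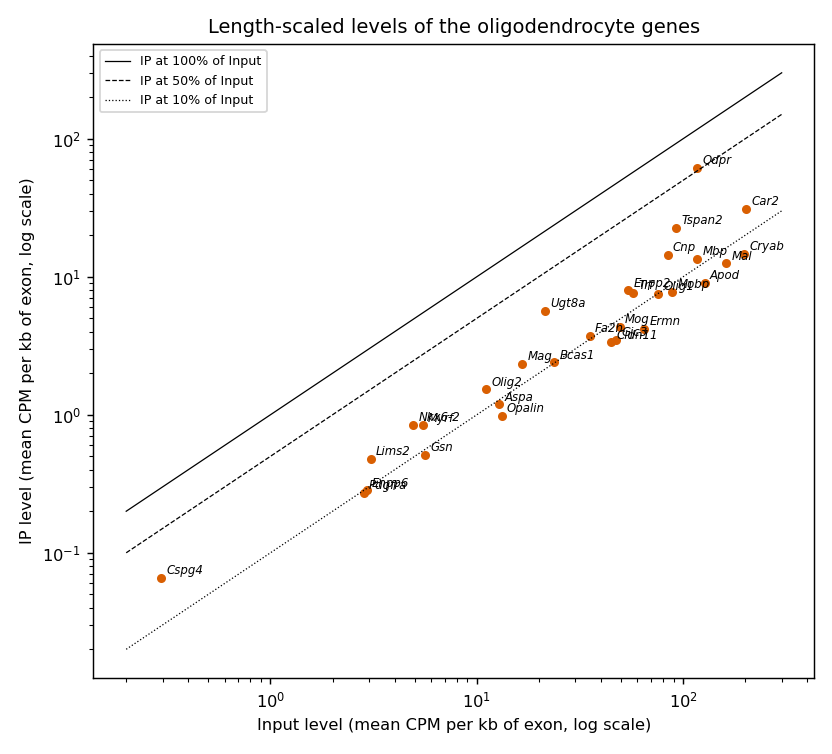
Mean level of each of the 30 genes in IP against its mean level in Input, both in CPM per kb of exon on log axes, with lines where IP equals 100%, 50% and 10% of Input. Most genes lie along the 10% line over the whole range of levels, and Qdpr lies near the 50% line.

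The make-up of the oligodendrocyte counts differed between the groups. Of the counts of the 30 genes, Qdpr took 3.46% ± 0.168 of Input and 13.6% ± 0.529 of IP (mean ± SD, n = 3 each). Tspan2 took 7.30% ± 0.496 of Input and 13.3% ± 0.405 of IP, and neither gene overlapped between groups. Mbp took 16.5% ± 0.270 and 14.1% ± 1.26. Mobp, second in Input, took 8.70%, 9.23% and 12.2% of the Input libraries and 5.54%, 4.67% and 9.12% of the IP libraries, which overlapped. Mbp was the most counted of the 30 in all libraries except IP replicate 1, where it was Tspan2.

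**Figure D4:**
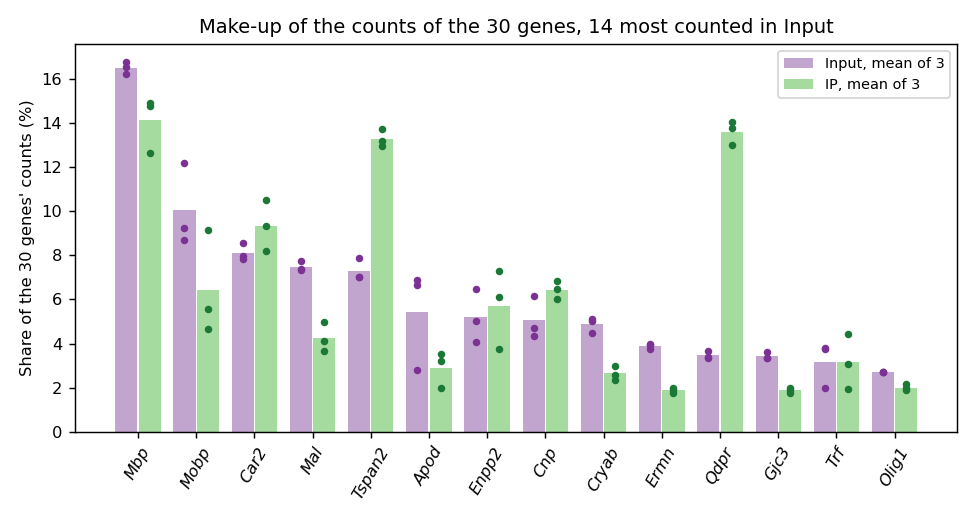
Share of the summed counts of the 30 genes taken by the 14 genes most counted in Input, in percent, with bars for the mean of 3 libraries, points for the libraries, purple for Input and green for IP. The bars of Qdpr, Tspan2, Car2, Cnp and Enpp2 are taller in IP, those of Mbp, Mobp, Mal, Apod, Cryab, Ermn, Gjc3 and Olig1 are shorter, and those of Trf are nearly level, with points that overlap between groups for several of them.

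Other genes of the lineage, from lists that did not hold these 30, fell in most cases. Of 40 other genes of mature oligodendrocytes 37 fell, 0 rose and 3 did not pass, with a median log2 fold change of -2.98. Over all tested genes 27.9% were called lower and 26% higher. Ptgds, a prostaglandin synthase that is also made by meninges, had a log2 fold change of -3.65 (SE 0.45), and Tmem88b, a transmembrane protein gene, one of -3.48 (SE 0.16). The 3 genes that did not pass were the tubulin gene Tubb4a, Carns1 and Omg, a myelin glycoprotein gene also known from neurons, at log2 fold changes of 0.26, -0.13 and 0.25.

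Of 20 other genes of precursors and newly formed oligodendrocytes 14 fell, 0 rose and 6 did not pass. Their median was -1.89, and 27.9% of all tested genes were called lower. Sox8, a SOX factor of the lineage, had a log2 fold change of -3.36 (SE 0.16), Tns3, a tensin, one of -2.38 (SE 0.14), and Ptprz1, a receptor phosphatase shared with astrocytes, one of -1.77 (SE 0.26). The 6 that did not pass were Lhfpl3, Tnr, Nkx2-2, Xylt1, C1ql1 and Cacng4. Of these, Tnr was called higher without IP replicate 3. Nkx2-2 was called lower when scaled by upper quartiles or by library totals, and C1ql1 was called lower without Input replicate 3, also where IP replicate 2 was left out with it.

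Markers of other glia and of vessels, which a midbrain sample also holds, fell in most cases, where 27.9% of all tested genes were called lower. Among 20 astrocyte genes 18 fell, including the glutamate transporter gene Slc1a2 and the glutamine synthetase gene Glul. Their median was -2.87, and their summed level was 1023 to 1121 CPM in IP against 2538 to 3369 CPM in Input. Aldoc, an aldolase gene that did not pass, made up 605 ± 26.2 CPM of the IP sum (SD, n = 3). Among 20 microglial genes 19 fell, including the purinergic receptor gene P2ry12, with a median of -3.46 and sums of 18.2 to 35.4 CPM in IP against 108 to 186 CPM in Input. Among 17 tested endothelial genes 13 fell, including the transporter gene Slco1a4, with a median of -2.48 and sums of 33.4 to 45.7 CPM in IP against 54.3 to 92.7 CPM in Input. Slc2a1, a glucose transporter gene that did not pass, made up 21.4 ± 5.25 CPM of that IP sum (SD, n = 3). Of the 17 endothelial genes 8 fell past 2-fold. Calls of Cldn5, Kdr, Ly6a and Ly6c1 were lost at a threshold of 0.01 and without Input replicate 2, and some of these also in other settings. Some endothelial IP levels lay near the floor of 3 counts, such as 0.0488 to 0.0956 CPM of Vwf. The summed level of the 30 oligodendrocyte genes was 708 to 882 CPM in IP against 5502 to 6473 CPM in Input. Differences between these lists were not tested. Of 10 Schwann cell genes, which mark the myelin of peripheral nerves, 5 were tested, of which Drp2, Pmp22 and Egr2 fell and Gldn and Ncmap rose. Without IP replicate 2 and Input replicate 3, Pmp22 and Ncmap passed and Drp2, Egr2 and Gldn did not. Pmp22 was also the one fall left without IP replicate 2 or without Input replicate 3 alone. The Schwann cell gene Pmp2, at 0 in all IP libraries, was among those not tested.

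**Figure D5:**
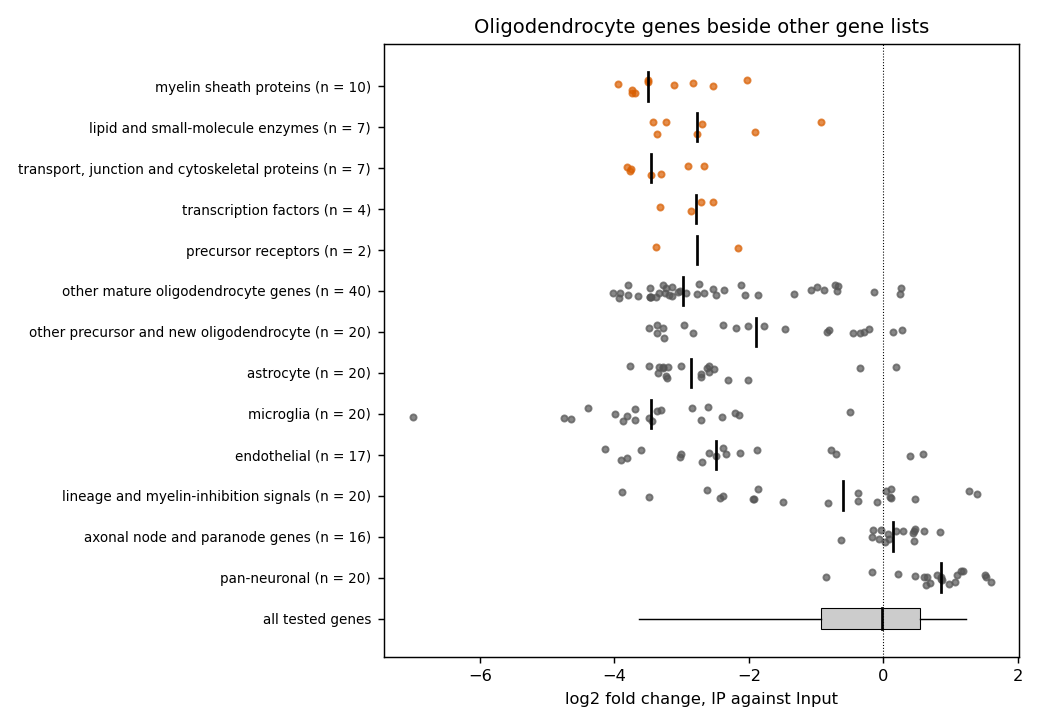
Log2 fold change of IP against Input for each gene, as points, in the 30 oligodendrocyte genes by role (orange) and in other lists (grey), with a black bar at each median and, for all tested genes, a box from the 25th to the 75th percentile with lines to the 5th and 95th. The oligodendrocyte groups lie with astrocyte, microglial and endothelial genes, left of the axonal and pan-neuronal genes.

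Most genes of the axonal zones that border the sheath did not pass the test in either direction. The node of Ranvier and the flanking paranode and juxtaparanode are axonal zones whose channels and adhesion molecules are placed by contact with myelin. Of 16 such genes 4 rose and 1 fell, while 11 did not pass, and their median log2 fold change was 0.14. Over all tested genes 26% were called higher and 27.9% lower, so the count of rises was near the background. Kcna2, a potassium channel under the sheath, stood at 0.61 (SE 0.18), and Dlg4, a scaffold, at 0.48 (SE 0.12). Kcnab2, a channel beta subunit, also rose, and Kcnq3, a potassium channel subunit, fell with -0.63 (SE 0.13). The count of rises was 2 without IP replicate 1, without IP replicate 2, and without IP replicate 2 and Input replicate 3 together, where Kcna2 no longer passed, and 8 without IP replicate 3. With upper-quartile scaling or library totals alone Ank3, the gene of the nodal anchor ankyrin G, also fell. With the replicate block 6 rose, among them the paranodal gene Cntnap1 and the nodal sodium channel gene Scn8a. Among 20 pan-neuronal genes, including the synaptic gene Snap25, 17 rose and 1, the dendritic gene Map2, fell. Their median log2 fold change was 0.86.

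Of 20 ligand and receptor genes of signals between neurons and the lineage, 10 fell, 3 rose and 7 did not pass, where 27.9% of all tested genes were called lower and 26% higher. The 3 that rose were the ligand genes Gas6, which signals through the receptors Axl and Tyro3, Nrg1, the neuregulin read by Erbb3 and Erbb4, and Pdgfa, the ligand of Pdgfra, with log2 fold changes of 1.27 (SE 0.26), 1.39 (SE 0.29) and 0.47 (SE 0.13). None of the 3 rises was shown to exceed 2-fold. Pdgfa did not pass with upper-quartile scaling, with library totals alone, at a threshold of 0.01, or without IP replicate 2 and Input replicate 3. Among receptor genes that fell were Fgfr2 at -2.43 (SE 0.20), Fgfr3, also an astrocyte marker, at -2.62 (SE 0.29), Axl at -3.48 (SE 0.38) and Erbb3 at -3.88 (SE 0.66). Erbb3 had 0.406, 0.0244 and 0.257 CPM in IP, of which the level in IP replicate 2 lay below the floor of 3 counts. Igf1r, an insulin-like growth factor receptor, fell with -0.82 (SE 0.16). Ligands and receptors did not divide by direction. The ligand gene Jag1 fell with -1.92 (SE 0.435), and the ligand gene Igf1 did not pass at 0.12 (SE 0.23). The receptor genes Tyro3 and Erbb4 did not pass, at -0.37 (SE 0.19) and -0.37 (SE 0.17). Lingo1 and Rtn4r, which form a receptor for myelin inhibitors such as Mag on neurons, stood at 0.11 (SE 0.17) and 0.12 (SE 0.29) and did not pass. Other genes of this list did fall, with -1.86 (SE 0.33) for Ngfr, -1.485 (SE 0.185) for Tnfrsf19 and -1.94 (SE 0.72) for Rtn4rl2. The Rtn4rl2 call was lost at a threshold of 0.01 and was absent with a minimum count of 50. With 1 library left out, it held only where that library was the second of IP or the third of Input. Its levels overlapped between groups, at 0.117 to 0.562 CPM in IP and 0.543 to 2.27 CPM in Input. Rtn4 and Rtn4rl1 did not pass.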

How the data were processed

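RNA of the midbrain was measured in 3 IP and 3 Input libraries, grouped and numbered by their titles. The authors deposited unnormalized counts by gene symbol, a file for each library. Alignment used STAR 2.0.0e, counting used HTSeq, and the build was mm10, per the submitters' processing notes. Which annotation, strand setting and counting mode were used is not given in the sources used here. Summary lines and the entry for unknown genes, at 0 or 1 count per library, were left out. Of all tallied reads, 7.74% to 14.9% lay in no feature, and 44.2% ± 0.402 in IP against 32.5% ± 0.596 in Input had several alignments (mean ± SD, n = 3 each).

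Of 32531 entries, filterByExpr by group (minimum count 10, minimum total 15) kept 17197, among them all 30 oligodendrocyte genes. TMM factors scaled the counts, and edgeR 4.0.16 under R 4.3.3 tested them (robust quasi-likelihood fit, group as the only term, two-sided), with Benjamini-Hochberg adjustment over all tested genes and a threshold of 0.05. Changes past 2-fold were tested with glmTreat. SEs are the absolute log2 fold change over the root of the F statistic.

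The genes and lists were chosen with earlier results of these data known. All 30 genes are named, and of each other list up to 3 most abundant called genes in its commoner direction and 1 in the other. Some genes that this rule names are not reported here. The other genes of these lists and the region markers were chosen after seeing their values.

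Same-numbered libraries shared a lane in their labels, and across genes their deviations from group means had correlations of 0.249, 0.096 and 0.113. No library was a copy of another (chi-square per degree of freedom 27.1 to 84.5 within groups). Alternatives were other scalings and filters, a replicate block, DESeq2 1.42.0, a threshold of 0.01 and leaving out libraries. Floors of 3 counts, 0.0654 to 0.0788 CPM, cover counting error only. Positions and exon lengths are from GENCODE M21, which matched all 30 symbols.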

Additional observations from a re-analysis of the deposited data

How the results depend on the processing

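The 30 oligodendrocyte genes kept their direction and call under each of the 15 alternatives run, in 450 of 450 recomputed values. The count past 2-fold was 28 or 29. Leaving out 1 library at a time gave median residual shares of 10.04% to 11.4%, and the other scalings 9.35% to 10.2%. With the replicate block, 30 of the 30 genes were lower, 29 past 2-fold, and their median log2 fold change was -3.27. The block changed no call among the 30 genes. Beyond them it added 2 axonal rises, 1 microglial fall and 2 endothelial falls. Rises made up 48.2% of all calls, 38.1% under upper-quartile scaling and 39.2% under library totals, where the all-gene median log2 fold change was -0.17 and -0.15 against -0.01. The fewest reads lay behind Cspg4, at 26 counts in an IP library.

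Small lists moved more. Of the axonal genes, 2 fell under either of these scalings, 2 rose at a threshold of 0.01 and without IP replicate 2 and Input replicate 3, and 2 to 8 rose with 1 library left out. Of 5 tested Schwann cell genes 3 fell and 2 rose. The falls were 1 at a threshold of 0.01, 1 without IP replicate 2 and Input replicate 3, where 1 rose, and 1 to 4 with 1 library left out, where Prx could enter the test. With 1 library left out, 0 to 1 of the other precursor genes and 0 to 1 of the endothelial genes (Egfl7, without Input replicate 2) rose. The cause was not tested.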
